A study of Mus musculus with 9 samples.

Results

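Fas, its ligand and 8 further genes of death receptor signalling were followed across hippocampus libraries of control MRL/mpj mice, of MRL/lpr mice and of MRL/lpr mice given mesenchymal stem cells. The members were named by symbol (Fas, Fasl, Fadd, Casp8, Cflar, Tnfrsf1a, Tnfrsf10b, Tradd, Ripk1 and Ripk3), and all 10 were found among the 47643 genes of the count matrix. Hippocampal RNA was sequenced in 9 libraries, 3 per group, from mice 6 weeks old. MRL/mpj mice are the wild-type, untreated controls, untreated MRL/lpr mice bear lpr, a germ-line mutation in Fas, on the MRL background, and MRL/lpr+MSC mice bear the same mutation and received mesenchymal stem cells. Every cell of an MRL/lpr mouse carries the mutation, so that the mice are no model of Fas loss in the brain alone. The labels name C57BL/6 as the strain of all libraries, whereas the design text of the series names MRL mice, and the latter is used here. The dose, route and time of the stem cells are not given in the sources used here. The study describes the sequenced MRL/mpj and MRL/lpr samples as individual mice. No source used here says so of every group. The published columns headed MRL/lpr follow the libraries labelled MRL/lpr+MSC, as given below, so which of these groups is meant is not settled. For a group not so described, p-values measure only the spread between its libraries.

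Death receptors are members of the tumour necrosis factor receptor family that carry a death domain in their cytoplasmic tail. Fas, bound by Fas ligand, recruits the adaptor FADD, which gathers caspase-8 into a complex in which the caspase activates itself, and c-FLIP, the product of Cflar, competes for the same complex and restrains it. TNF receptor 1 first binds TRADD and RIPK1 and signals to NF-kappaB, and only a second complex leads to caspase-8 or, where caspase-8 is inactive, to necroptosis through RIPK1, RIPK3 and MLKL. In the immune system this route removes activated lymphocytes, and its loss through Fas leaves lpr mice with enlarged lymphoid organs and autoantibodies. In brain, microglia, endothelium, astrocytes and infiltrating leukocytes are known to use these receptors.

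The lpr allele is an early transposon inserted in intron 2 of Fas, which ends most transcripts early by supplying other splice and polyadenylation sites. Fas (ENSMUSG00000024778) lies on the plus strand of chromosome 19 at chr19:34290666-34327772 (GRCm38), and the reference transcript Fas-201 has 9 exons and 1481 bases. Intron 2 spans chr19:34307279-34315178 and separates 233 bases of exons 1 and 2 from the remaining 84.3% of the transcript, with 81.2% of the coding sequence. The reference junction that skips this intron is shown because it is the join that the insertion interrupts. It consists of the last 30 bases of exon 2 in lower case and the first 30 bases of exon 3 in capitals.
Fas exon 2 to exon 3: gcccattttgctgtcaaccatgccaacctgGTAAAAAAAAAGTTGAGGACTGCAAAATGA

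**Figure D1:**
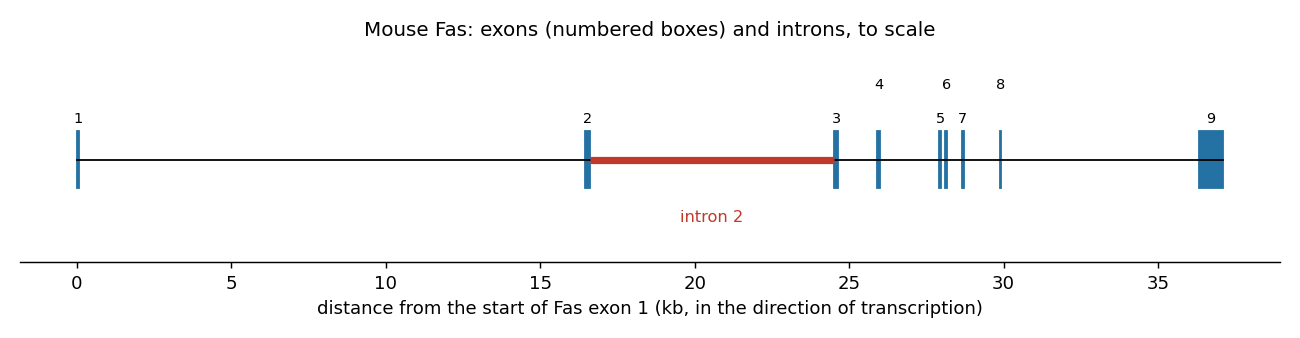
Map of mouse Fas to scale, with distance from the start of exon 1 in kb along the horizontal axis, exons as numbered boxes and intron 2, the site of the lpr insertion, as a thick red line. Of the 1481 transcribed bases, 233 lie before intron 2 and 1248 after it.

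The deposited value is 1 count per gene and library, so reads before and after intron 2 could not be told apart. Fas had 40, 43 and 30 counts in the MRL/mpj libraries, 65, 31 and 42 in the MRL/lpr libraries, and 19, 24 and 41 in the MRL/lpr+MSC libraries. As CPM (counts scaled to a common library size, with TMM factors from all 9 libraries), these were 2.0, 1.85 and 1.63 in MRL/mpj, 2.27, 1.33 and 1.77 in MRL/lpr, and 0.985, 1.11 and 1.81 in MRL/lpr+MSC. All groups overlapped, and the MRL/lpr libraries lay on both sides of the MRL/mpj libraries. The log2 fold change of MRL/lpr against MRL/mpj was -0.04 (SE 0.26, 95% interval -0.66 to 0.59, adjusted p = 0.936, limma voom with Benjamini-Hochberg adjustment over all genes tested), and it turned positive when MRL/mpj replicate 1 (0.02) or MRL/lpr replicate 2 (0.15) was left out. MRL/lpr+MSC stood at -0.51 against MRL/mpj (SE 0.28, interval -1.17 to 0.15, adjusted p = 0.332) and at -0.47 against MRL/lpr (SE 0.33, interval -1.27 to 0.33, adjusted p = 0.921). The summed count of Fas therefore did not separate the genotypes and gives no check of the labels. For MRL/lpr against MRL/mpj, a log2 fold change below -0.66 lay outside the interval.

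The total count per library ran from 19475804 to 26912031. A published table of normalised values of these libraries was compared with the counts, over the genes with at least 20 counts. In all of the 1735 to 1892 genes compared, the columns headed MRL/mpj were constant multiples, within 0.1%, of the same-numbered MRL/mpj libraries, whereas the columns headed MRL/lpr were constant multiples of the libraries that the labels call MRL/lpr+MSC. The labels were followed here, and values are given for both MRL/lpr groups against MRL/mpj, since an exchange of the labels would exchange these 2 contrasts. The libraries also differed in markers of other cells. The sums of 6 endothelial markers separated the groups, at 237 to 276 CPM in MRL/mpj, 305 to 316 CPM in MRL/lpr and 327 to 360 CPM in MRL/lpr+MSC. Taken singly, 2 of the 6 had MRL/lpr libraries all above the MRL/mpj libraries. The summed CPM of 7 T cell markers ran from 1.74 to 2.35 in MRL/mpj, with 2 markers at 0 in all 3 libraries, from 6.51 to 19.3 in MRL/lpr and from 2.39 to 4.24 in MRL/lpr+MSC. That of 5 B cell markers ran from 0.602 to 1.35, from 2.58 to 5.94 and from 0.207 to 1.46 in the same order, and that of 4 neutrophil markers from 1.42 to 4.94, from 1.16 to 1.39 and from 0.259 to 15.4. That of 12 interferon-induced genes ran from 26.7 to 27.2, from 54.3 to 147 and from 34.2 to 50.2 in the same order. Choroid plexus markers reached 9603 CPM in MRL/lpr replicate 2 and 4830 CPM in MRL/lpr+MSC replicate 2, against 99.5 to 1067 CPM in the other 7 libraries, and 6 striatal markers summed to 69.0 to 78.4 CPM in MRL/mpj, 119 to 142 CPM in MRL/lpr and 81.1 to 177 CPM in MRL/lpr+MSC. Markers of hippocampal and excitatory neurons were present in every library (5789 to 10549 CPM) and were lower in all MRL/lpr libraries than in all MRL/mpj libraries, and 8 microglial markers summed to 317 to 347 CPM in MRL/mpj, 270 to 346 CPM in MRL/lpr and 269 to 303 CPM in MRL/lpr+MSC. The sums for border macrophages and monocytes, fibroblasts, thalamus, astrocytes and oligodendrocytes overlapped between the groups. The part of these cells in the results was not tested.

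None of the members passed the threshold of both a 1.5-fold difference and an adjusted p below 0.05 in any comparison. In MRL/lpr against MRL/mpj, 9 members were tested and 0 were called, where 3.41% of the 16697 genes tested were called higher and 2.38% lower. In that comparison 4 of the 9 members had MRL/lpr libraries all above the MRL/mpj libraries (Casp8, Cflar, Tnfrsf1a and Ripk1) and 0 had them all below, against 19.4% and 18.6% of all genes tested. The same 4 genes had an unadjusted p under 0.05, against 30.4% of all genes tested. The median log2 fold change was 0.57 over the 9 members and 0.02 over all genes tested, and 7 of the 9 were positive, against 52.8% of all genes. Both the median and the 7 positive members include Ripk3, which reached the counts needed for testing only with its MRL/lpr libraries. That way of entry favours a positive sign. In bulk tissue, more cells that express a gene and more RNA per cell cannot be told apart.

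**Figure D2:**
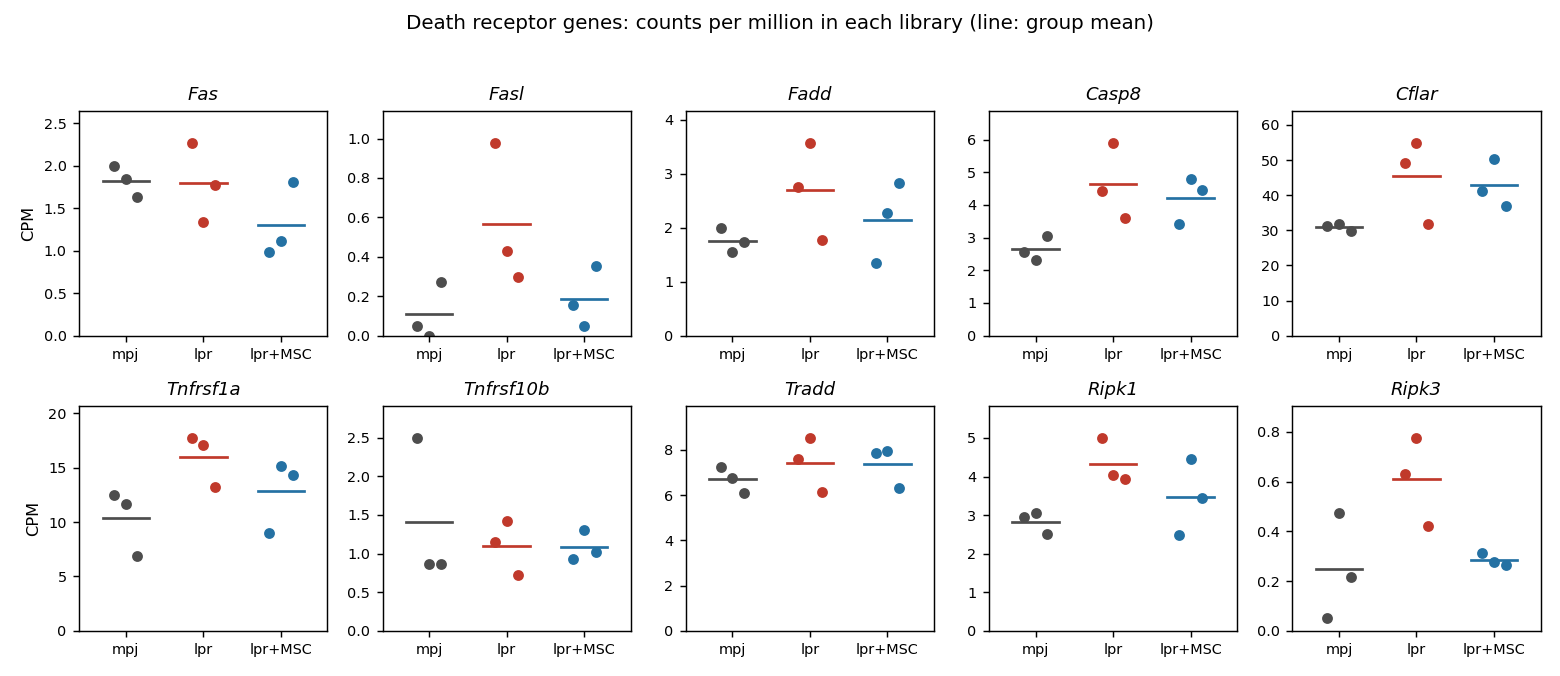
CPM of the 10 death receptor genes in each library, 1 panel per gene with its own scale from 0, with controls (mpj), untreated (lpr) and treated (lpr+MSC) mice from left to right, 1 point per library and a line at the group mean. The MRL/lpr points of Casp8, Tnfrsf1a and Ripk1 lie above the MRL/mpj points, those of Cflar do so by a margin set by MRL/lpr replicate 3 (31.9 CPM), and Fas, Tnfrsf10b and Tradd overlap.

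Fasl, the ligand, is made mainly by activated T cells and natural killer cells. It had 1, 0 and 5 counts in MRL/mpj, 28, 10 and 7 in MRL/lpr, and 3, 1 and 8 in MRL/lpr+MSC, and it was too low to be tested in any comparison. The count of 0 in MRL/mpj replicate 2 allows up to 3 counts, or 0.129 CPM, for counting error only. The lowest MRL/lpr library (0.296 CPM) lay just above the highest MRL/mpj library (0.272 CPM), and the MRL/lpr+MSC libraries (0.0464 to 0.354 CPM) overlapped both groups. Within MRL/lpr, Fasl (0.978, 0.431 and 0.296 CPM in replicates 1, 2 and 3) had the same order as the T cell markers (19.3, 11.9 and 6.51 CPM). The orders differed within MRL/mpj (0.0499, 0 and 0.272 CPM for Fasl against 2.35, 1.85 and 1.74 CPM for the markers) and within MRL/lpr+MSC (0.156, 0.0464 and 0.354 CPM against 2.39, 3.20 and 4.24 CPM). The 6 markers of natural killer and cytotoxic cells summed to 5.56, 2.84 and 1.39 CPM in MRL/lpr. This list was at 0.622, 0.186 and 1.15 CPM in MRL/lpr+MSC, in the same order as Fasl, as it was within MRL/lpr. It was at 0.200, 0.258 and 0.272 CPM in MRL/mpj, with 2 markers at 0 and in another order than Fasl. Within MRL/lpr, the B cell sums (5.94, 5.17 and 2.58 CPM) and interferon-induced sums (147, 104 and 54.3 CPM) also followed the order of Fasl. So did the sums for border macrophages and monocytes, whereas the lists not named in this paragraph had other orders. In MRL/mpj and MRL/lpr+MSC, none of these further sums had the order of Fasl. The order within MRL/lpr is therefore not particular to T cell and natural killer markers. The part of any of these cells in the Fasl counts was not tested.

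Tnfrsf1a, which encodes TNF receptor 1, was the most abundant receptor of the set. It had 250, 272 and 127 counts in MRL/mpj, 507, 396 and 312 in MRL/lpr, and 173, 326 and 324 in MRL/lpr+MSC, or 12.5, 11.7 and 6.91 CPM, 17.7, 17.1 and 13.2 CPM, and 8.97, 15.1 and 14.3 CPM. The MRL/lpr libraries lay above all MRL/mpj libraries, 1 of which was well below its group, whereas MRL/lpr+MSC overlapped both. The log2 fold change was 0.65 in MRL/lpr against MRL/mpj (SE 0.23, 95% interval 0.10 to 1.20, unadjusted p = 0.0271, adjusted p = 0.117, limma voom). It was 0.31 in MRL/lpr+MSC against MRL/mpj (SE 0.28, adjusted p = 0.556). With the replicate number as a block, although the numbers do not pair the libraries, the first of these was called at 0.62 (adjusted p = 0.0492).

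Tnfrsf10b encodes a mouse death receptor for TRAIL. It had 50, 20 and 16 counts in MRL/mpj, 33, 33 and 17 in MRL/lpr, and 18, 28 and 23 in MRL/lpr+MSC, so that the spread among the MRL/mpj libraries exceeded every difference between groups. Its log2 fold change was -0.21 in MRL/lpr against MRL/mpj (SE 0.49, interval -1.36 to 0.94, adjusted p = 0.800), and without MRL/mpj replicate 1, the highest library at 2.5 CPM, it was 0.28. Without that library, MRL/lpr+MSC against MRL/mpj changed from -0.18 (SE 0.45, adjusted p = 0.849) to 0.31.

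Of the adaptors, Fadd joins Fas and the product of Tnfrsf10b to caspase-8, and Tradd joins TNF receptor 1 to RIPK1. Fadd had 2.0, 1.55 and 1.74 CPM in MRL/mpj, 2.76, 3.57 and 1.77 CPM in MRL/lpr, and 1.35, 2.27 and 2.83 CPM in MRL/lpr+MSC. Replicates 1 and 2 of MRL/lpr were above MRL/mpj, and replicate 3 lay within it, which gave a log2 fold change of 0.57 (SE 0.31, interval -0.17 to 1.31, adjusted p = 0.262). A non-coding gene on the opposite strand, Faddos, shares 6.12% of the exonic bases of Fadd, and no source used here says whether strand entered the counting. Tradd had 7.24, 6.75 and 6.10 CPM in MRL/mpj, 7.62, 8.53 and 6.13 CPM in MRL/lpr, and 7.88, 7.94 and 6.32 CPM in MRL/lpr+MSC. Its groups overlapped, with log2 fold changes of 0.14 (-0.26 to 0.54, adjusted p = 0.602) in MRL/lpr and 0.13 (-0.22 to 0.48, adjusted p = 0.650) in MRL/lpr+MSC against MRL/mpj, so that a 1.5-fold rise lay outside both intervals.

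Casp8 and Cflar encode the initiator caspase and its catalytically inactive relative, and they are neighbours on the plus strand of chromosome 1, with 36.5 kb between the end of Cflar (chr1:58711508-58758884) and the start of Casp8 (chr1:58795374-58847503). Casp8 had 51, 54 and 56 counts in MRL/mpj, 127, 137 and 85 in MRL/lpr, and 66, 103 and 101 in MRL/lpr+MSC, or 2.55, 2.32 and 3.05 CPM, 4.44, 5.90 and 3.59 CPM, and 3.42, 4.78 and 4.46 CPM. Every library of both MRL/lpr groups was above every MRL/mpj library. The same held for the summed endothelial, striatal, T cell and interferon-induced markers, whose part in Casp8 was not tested. The mean was 2.64 ± 0.37 CPM in MRL/mpj, 4.64 ± 1.17 CPM in MRL/lpr and 4.22 ± 0.71 CPM in MRL/lpr+MSC (SD, n = 3).

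The log2 fold change of Casp8 was 0.80 in MRL/lpr against MRL/mpj (SE 0.25, 95% interval 0.21 to 1.39, unadjusted p = 0.0147, adjusted p = 0.0848, limma voom), which missed the threshold. It was 0.69 in MRL/lpr+MSC against MRL/mpj (SE 0.21, interval 0.20 to 1.19, unadjusted p = 0.0125, adjusted p = 0.110). In each comparison, leaving out 1 library led to a call, at 0.95 without MRL/lpr replicate 3 (adjusted p = 0.0427) and at 0.83 without MRL/lpr+MSC replicate 1 (adjusted p = 0.0313), respectively. Without MRL/lpr replicate 2, the library rich in choroid plexus markers, the fold change was 0.63 (adjusted p = 0.101).

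Cflar was the member with the most counts, with 31.2, 31.8 and 29.8 CPM in MRL/mpj, 49.3, 54.9 and 31.9 CPM in MRL/lpr, and 41.2, 50.3 and 36.9 CPM in MRL/lpr+MSC. The MRL/mpj libraries were close together, and MRL/lpr replicate 3 was just above them. The log2 fold change was 0.52 in MRL/lpr (SE 0.21, interval 0.02 to 1.02, unadjusted p = 0.0439, adjusted p = 0.153) and 0.46 in MRL/lpr+MSC (SE 0.12, interval 0.17 to 0.75, unadjusted p = 0.00688, adjusted p = 0.0820), each against MRL/mpj. Without MRL/lpr replicate 3 it was called at 0.75 (adjusted p = 0.00614), and without MRL/lpr replicate 2 it was 0.37 (adjusted p = 0.216).

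The balance of the 2 genes, taken as the log2 ratio of Casp8 to Cflar counts within a library, does not depend on the scaling. It was -3.56 ± 0.25 in MRL/mpj, -3.28 ± 0.17 in MRL/lpr and -3.34 ± 0.28 in MRL/lpr+MSC (SD, n = 3). The groups overlapped, and the differences of 0.28, 0.22 and -0.06 (first each MRL/lpr group against the controls, then the treated against the untreated MRL/lpr mice) had two-sided p of 0.2, 0.4 and 0.8 by an exact permutation test, in which 3 libraries against 3 cannot go below 0.1. The adjusted values over the 3 comparisons were 0.6, 0.6 and 0.8. Per length, Cflar was 1.89 to 3.13 times as abundant as Casp8 in FPKM, the authors' values scaled for gene length and library size.

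Ripk1 and Ripk3 encode the kinases that divide between NF-kappaB signalling and necroptosis. Ripk1 had 59, 71 and 46 counts in MRL/mpj, 143, 94 and 93 in MRL/lpr, and 48, 96 and 78 in MRL/lpr+MSC, or 2.95, 3.05 and 2.5 CPM, 5.00, 4.05 and 3.93 CPM, and 2.49, 4.46 and 3.45 CPM. The MRL/lpr libraries lay above MRL/mpj, and MRL/lpr+MSC spanned both groups. The log2 fold change was 0.61 in MRL/lpr against MRL/mpj (SE 0.19, interval 0.16 to 1.06, unadjusted p = 0.0150, adjusted p = 0.0855) and 0.26 in MRL/lpr+MSC against MRL/mpj (SE 0.25, adjusted p = 0.581). The former ran from 0.49 to 0.67 over the libraries left out in turn. A processed pseudogene on the same strand shares 6.12% of the exonic bases of Ripk1, and Serpinb6a on the opposite strand shares 2.89%.

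Ripk3 had 1, 11 and 4 counts in MRL/mpj, 18, 18 and 10 in MRL/lpr, and 6 in each MRL/lpr+MSC library. The MRL/mpj and MRL/lpr ranges met (0.0499 to 0.473 CPM against 0.422 to 0.775 CPM), and the MRL/lpr+MSC libraries (0.265 to 0.311 CPM) lay within MRL/mpj and below MRL/lpr. Only MRL/lpr against MRL/mpj was tested, and the log2 fold change of 1.53 had an interval from -0.03 to 3.09 (SE 0.66, adjusted p = 0.171, limma voom). The MRL/lpr libraries carried Ripk3 past the counts needed for testing, which favours a positive value.

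**Figure D3:**
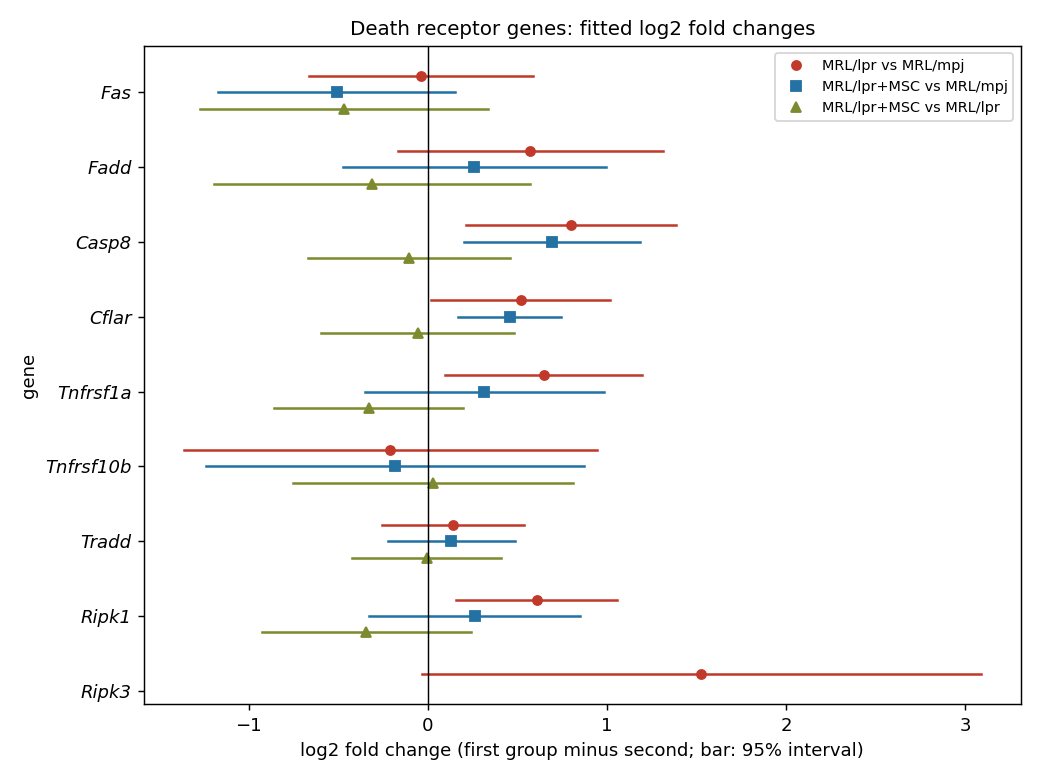
Fitted log2 fold change of each tested death receptor gene on the horizontal axis, with 1 line per gene and comparison, a symbol at the estimate and a bar for the 95% interval from limma voom. In MRL/lpr against MRL/mpj (red circles) the intervals of Casp8, Cflar, Tnfrsf1a and Ripk1 lie above 0, and all intervals of MRL/lpr+MSC against MRL/lpr (green triangles) include 0.

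Between MRL/lpr+MSC and MRL/lpr mice, 8 members were tested and 0 were called, as were 0.00% of the 16758 genes, with 647 genes at an unadjusted p under 0.05 by limma voom and 0 called by limma-trend. Of the 8 members, 7 had a negative log2 fold change, with a median of -0.21 over the members and -0.00 over all genes. The estimates were -0.47 for Fas, -0.34 for Ripk1, -0.33 for Tnfrsf1a, -0.31 for Fadd, -0.11 for Casp8, -0.06 for Cflar, -0.01 for Tradd and 0.03 for Tnfrsf10b, with adjusted p from 0.921 upwards. The interval of Ripk1, for example, ran from -0.93 to 0.24, which leaves room for a fall by more than 1.5-fold as for no change. In MRL/lpr+MSC against MRL/mpj, 8 members were tested and 0 called, against 1.93% of 16196 genes called higher and 1.5% lower. Casp8 and Cflar were the 2 members whose groups did not overlap, both higher, against 15.2% of genes higher and 14.4% lower, and the median was 0.26 over the members and 0.01 over all genes. Both comparisons with MRL/mpj use the same control libraries, and their values are set side by side for that reason.

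The levels of the members relative to each other were read from the FPKM values. For Fas in the MRL/lpr groups, these do not allow for transcripts that the insertion ends early. The place of Fas is therefore not strictly comparable between the genotypes. In MRL/mpj, Tnfrsf1a (4.0 ± 1.14 FPKM) and Tradd (3.59 ± 0.29 FPKM) overlapped at the top. Cflar followed (2.45 ± 0.06 FPKM) without overlap on either side, and Fas (1.02 ± 0.10 FPKM) and Casp8 (0.915 ± 0.135 FPKM) overlapped below it. Ripk1 (0.462 FPKM), Fadd (0.452 FPKM) and Tnfrsf10b (0.445 FPKM) could not be ordered, and Ripk3 (0.126 FPKM) and Fasl (0.0559 FPKM) overlapped at the bottom. In MRL/lpr, Tnfrsf1a stood apart at the top (6.13 ± 0.92 FPKM), and Casp8 (1.59 ± 0.39 FPKM) had the place above Fas (0.990 ± 0.259 FPKM), although the ranges of these 2 overlapped. In MRL/lpr+MSC the ranges of Casp8 (1.46 ± 0.23 FPKM) and Fas (0.723 ± 0.247 FPKM) did not overlap. Within each library of both MRL/lpr groups, Casp8 was above Fas. The same held in MRL/mpj replicate 3 (1.06 against 0.916 FPKM), but not in MRL/mpj replicates 1 and 2.

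The promoters shown are those of the 4 tested members whose MRL/lpr and MRL/mpj libraries did not overlap. The letters near their starts can thereby be set beside the interferon-induced markers above. These promoters are RefSeq windows on GRCm38.p6 from 250 bases before to 50 bases after an annotated start, all on the plus strand. The motifs searched on both strands were an interferon-stimulated response element type (GAAANNGAAA), a gamma-activated site type (TTCNNNGAA) and a kappaB type (GGGANNTTCC), which occur in 3.44%, 8.3% and 1.47% of all 32851 windows. Matches are in capitals.
Casp8, chr1:58802252-58802551: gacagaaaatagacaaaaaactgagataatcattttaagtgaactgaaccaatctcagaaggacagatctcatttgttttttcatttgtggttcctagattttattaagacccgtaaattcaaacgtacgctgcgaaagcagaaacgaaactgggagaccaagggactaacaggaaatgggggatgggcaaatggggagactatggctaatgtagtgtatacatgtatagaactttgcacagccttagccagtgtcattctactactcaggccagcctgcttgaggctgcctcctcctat
Cflar, chr1:58711241-58711540: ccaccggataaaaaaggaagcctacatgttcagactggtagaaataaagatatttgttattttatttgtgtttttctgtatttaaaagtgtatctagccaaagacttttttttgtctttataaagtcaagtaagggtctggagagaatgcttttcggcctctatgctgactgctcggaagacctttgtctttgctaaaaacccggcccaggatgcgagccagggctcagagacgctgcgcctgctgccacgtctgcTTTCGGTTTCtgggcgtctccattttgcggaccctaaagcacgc
Tnfrsf1a, chr6:125349473-125349772: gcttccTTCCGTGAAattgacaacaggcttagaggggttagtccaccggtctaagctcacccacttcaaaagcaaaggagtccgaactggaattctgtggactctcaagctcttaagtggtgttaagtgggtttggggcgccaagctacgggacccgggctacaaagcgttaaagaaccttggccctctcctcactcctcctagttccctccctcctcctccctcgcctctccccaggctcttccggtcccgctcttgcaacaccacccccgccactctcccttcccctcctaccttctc
Ripk1, second of 2 windows, chr13:34002624-34002923: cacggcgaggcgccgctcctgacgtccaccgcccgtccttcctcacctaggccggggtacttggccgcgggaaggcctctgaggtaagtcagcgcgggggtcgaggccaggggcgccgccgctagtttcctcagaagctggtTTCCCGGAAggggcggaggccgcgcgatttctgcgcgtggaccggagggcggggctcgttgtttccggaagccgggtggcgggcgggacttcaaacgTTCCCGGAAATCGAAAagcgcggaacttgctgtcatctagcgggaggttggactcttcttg
Cflar held the response element type on the minus strand, Tnfrsf1a held the gamma-activated site type, and the window of Ripk1 shown held 2 of the latter, the second overlapping a response element type. Casp8 and the other window of Ripk1 held none of these letters. Of the members not shown, Fas, whose groups overlapped, held a gamma-activated site type. The windows of Fasl, Fadd and Ripk3 held none of the motifs, and Tnfrsf10b and Tradd had no window. The windows shown for Casp8, Tnfrsf1a and Ripk1 start inside the genes as GENCODE annotates them. A match is a description of the letters and not of binding.

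Beyond the members, 69 further genes of the pathway were listed by role, and 65 of them were tested in MRL/lpr against MRL/mpj, of which 6 were called higher and 0 lower, against 3.41% and 2.38% of all genes tested. Their median log2 fold change was 0.11, against 0.02 over all genes tested, with 38 of 65 positive. These values include Mlkl and Zbp1, the latter also among the 6 called. Both reached the counts needed for testing only with their MRL/lpr libraries, which favours a positive sign. In MRL/lpr+MSC against MRL/mpj 63 were tested, 3 were called higher and 1 lower, against 1.93% and 1.5% of all genes, with a median of 0.02 against 0.01 over all genes, and in MRL/lpr+MSC against MRL/lpr 0 of 67 were called. With a test against a 1.5-fold change instead of against 0, 0 were called in either comparison with MRL/mpj.

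**Figure D4:**
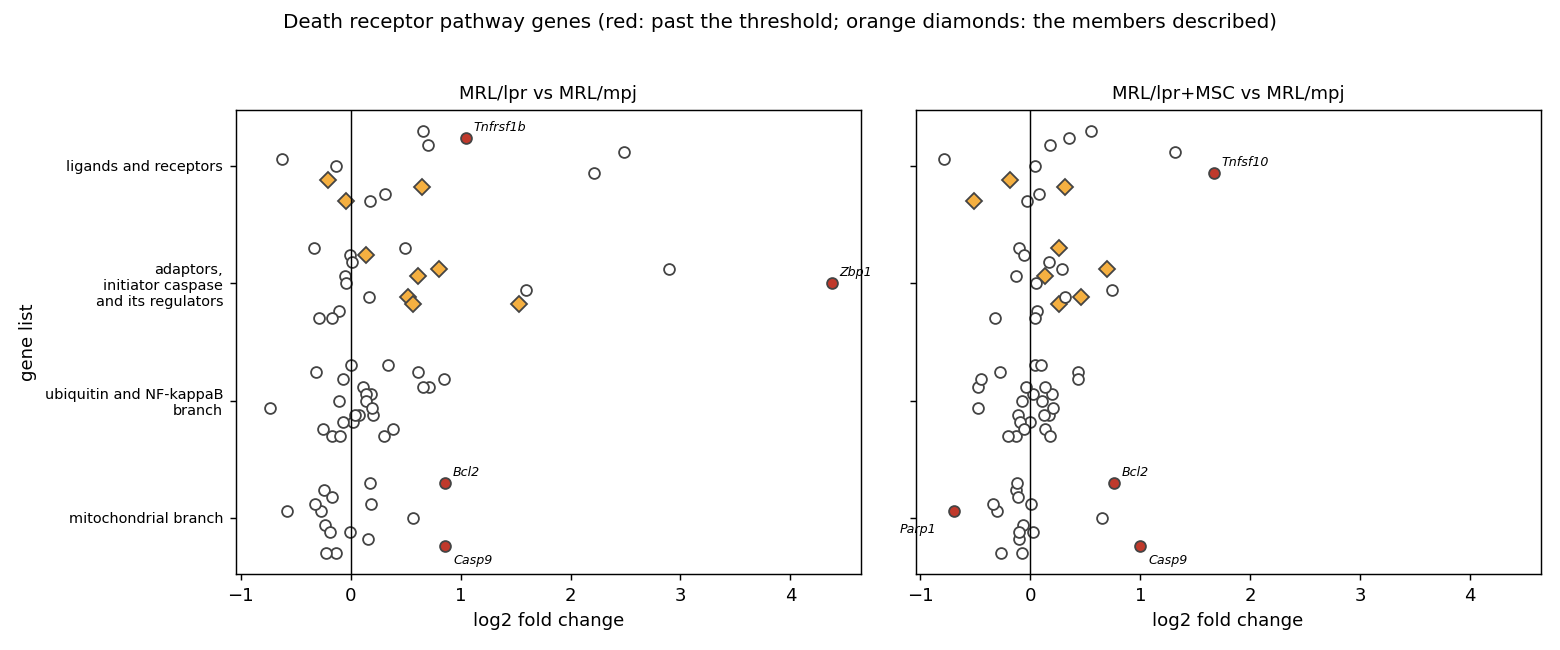
Log2 fold change of tested pathway genes on the horizontal axis, by list on the vertical axis, for MRL/lpr (left) and MRL/lpr+MSC (right) against MRL/mpj, with genes past the threshold in red and named, members as orange diamonds and other genes as open circles, and vertical position within a list without meaning. The called genes named on the left are Tnfrsf1b, Zbp1, Bcl2 and Casp9, all to the right of 0, and called genes that are not reported here are not drawn.

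In the mitochondrial branch 4 of 18 tested genes, Casp9 and Bcl2 among them, were called higher in MRL/lpr (3.41% of all genes tested were) while 10 of the 18 had a negative log2 fold change. Casp9, the initiator caspase of the apoptosome, had 24.0, 23.1 and 25.9 CPM in MRL/mpj, 46.8, 41 and 43.2 CPM in MRL/lpr, and 53.3, 46.1 and 45.6 CPM in MRL/lpr+MSC. All 6 libraries of the MRL/lpr groups were at 41 CPM or more, and all MRL/mpj libraries were at 25.9 CPM or less. The log2 fold change was 0.85 (SE 0.09, adjusted p = 0.00503) in MRL/lpr and 1.00 (SE 0.09, adjusted p = 0.00295) in MRL/lpr+MSC, and Casp9 was called whichever library was left out. The genes Cela2a and Ctrc on the opposite strand each share 1.81% of its exonic bases.

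Bcl2, which restrains the mitochondrial route, had 12.7, 11.2 and 11.4 CPM in MRL/mpj, 22.2, 16.4 and 26.2 CPM in MRL/lpr, and 16.0, 20.5 and 23.4 CPM in MRL/lpr+MSC, with both MRL/lpr groups above the controls. It was called higher in both, at 0.86 (SE 0.20, adjusted p = 0.0445) in MRL/lpr and 0.76 (SE 0.16, adjusted p = 0.0471) in MRL/lpr+MSC. D630008O14Rik on the opposite strand shares 6.09% of the exonic bases of Bcl2. Parp1, which encodes a DNA repair enzyme, was called lower in MRL/lpr+MSC (-0.70, SE 0.12, adjusted p = 0.0243) and stood at -0.58 in MRL/lpr (SE 0.13, adjusted p = 0.0427), just short of 1.5-fold.

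**Figure D5:**
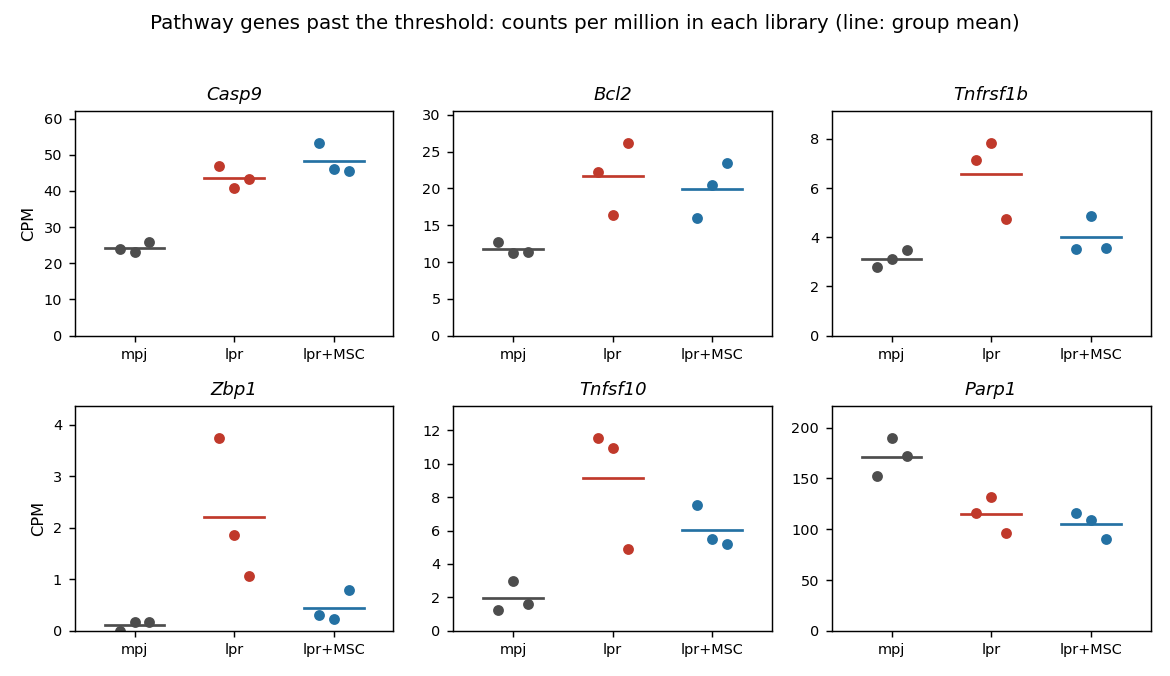
CPM in each library of 6 pathway genes past the threshold in at least 1 comparison, 1 panel per gene with its own scale from 0, with controls (mpj), untreated (lpr) and treated (lpr+MSC) mice from left to right, 1 point per library and a line at the group mean. Casp9 separates both MRL/lpr groups from MRL/mpj (41 to 53.3 CPM against 23.1 to 25.9 CPM), and Parp1 is the 1 gene that is lower in them.

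Among ligands and receptors, 1 of 12 tested genes was called in MRL/lpr and 1 in MRL/lpr+MSC, and they were different genes. Both were higher, against 3.41% and 1.93% of all genes tested. Tnfrsf1b, the second TNF receptor, which has no death domain, had 2.80, 3.09 and 3.48 CPM in MRL/mpj, 7.13, 7.84 and 4.73 CPM in MRL/lpr, and 3.53, 4.87 and 3.58 CPM in MRL/lpr+MSC, with log2 fold changes of 1.05 (SE 0.25, adjusted p = 0.0490) and 0.35 (SE 0.20, adjusted p = 0.347) against MRL/mpj. Tnfsf10, which encodes TRAIL, had 1.25, 3.01 and 1.58 CPM in MRL/mpj, 11.5, 10.9 and 4.90 CPM in MRL/lpr, and 7.52, 5.48 and 5.17 CPM in MRL/lpr+MSC. It was called in MRL/lpr+MSC (1.67, SE 0.33, adjusted p = 0.0366), and its larger but more variable value in MRL/lpr missed the threshold (2.21, SE 0.55, adjusted p = 0.0557) and passed it in 4 of 13 alternatives. Ngfr, the p75 neurotrophin receptor, was at 0.946 to 1.80 CPM in MRL/mpj and at 3.49, 9.60 and 14.6 CPM in MRL/lpr, but at 1.09, 1.86 and 15.7 CPM in MRL/lpr+MSC, where 1 library held the highest value of all 9. For untreated MRL/lpr mice relative to controls it gave a log2 fold change of 2.49 (SE 0.83, adjusted p = 0.104).

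Among adaptors and regulators, 1 of 19 tested genes was called in MRL/lpr, and it was higher, against 3.41% of all genes tested. In MRL/lpr+MSC 0 of 16 were called, against 1.93% of all genes higher and 1.5% lower. Zbp1, a sensor of nucleic acids that can engage RIPK3, had 0, 4 and 3 counts in MRL/mpj, 107, 43 and 25 in MRL/lpr, and 6, 5 and 18 in MRL/lpr+MSC. Its log2 fold change of 4.38 (SE 1.00, adjusted p = 0.0446, limma voom) rests on few control counts. Zbp1 reached the counts needed for testing only through its MRL/lpr libraries. It is also 1 of the 12 interferon-induced genes whose sums are given above. Mlkl, the effector of necroptosis, had 4, 3 and 0 counts in MRL/mpj, 25, 21 and 10 in MRL/lpr, and 7, 12 and 7 in MRL/lpr+MSC. It too reached the counts needed for testing only through its MRL/lpr libraries, and it missed the threshold (2.89, SE 0.77, adjusted p = 0.0610). In the ubiquitin and NF-kappaB branch 0 of 25 genes were called in any comparison. Its largest values in MRL/lpr mice relative to controls were 0.85 for Nfkb2 (SE 0.36, adjusted p = 0.165) and -0.73 for Nfkbia (SE 0.18, adjusted p = 0.0550). They encode an NF-kappaB subunit and the inhibitor of NF-kappaB, respectively. Psd and AC114539.1 on the opposite strand share 6.52% and 11.6% of the exonic bases of Nfkb2.

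The calls of Tnfrsf1b, Zbp1 and Bcl2 in MRL/lpr against MRL/mpj were each lost when any 1 MRL/mpj library was left out (adjusted p from 0.138 to 0.166) and when MRL/lpr replicate 1 was left out (from 0.0724 to 0.129), and those of Tnfrsf1b and Zbp1 also without MRL/lpr replicate 2 (0.0512 and 0.0526). In MRL/lpr+MSC, the calls of Tnfsf10, Bcl2 and Parp1 were lost without any 1 MRL/mpj library (from 0.0573 to 0.173) and without MRL/lpr+MSC replicate 2 or 3 (from 0.0513 to 0.113).

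The genes whose log2(CPM + 0.5) followed that of Fas most closely over the 9 libraries were Nxpe4 (Pearson's r = 0.986), Pappa (0.937) and Zfp950 (0.894), among the 14942 genes that averaged 1 CPM or more. This is a description over libraries that share groups and scaling.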

How the data were processed

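Hippocampal RNA was sequenced in 9 libraries. The authors aligned the reads to mm10 (STAR in the methods, whereas the submitters' processing notes name TopHat2 and GRCm38), counted reads per gene with HTSeq and deposited 1 matrix of raw counts of 47643 genes. Strand use is not stated. The deposited FPKM values of 28008 genes, computed by the authors, were used only for levels between genes. All 9 value columns had a sample (0 without), and 0 entries named no gene.

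Symbols and positions came from GENCODE vM21 and matched 47224 genes. Counts were scaled by TMM (30% of log ratios and 5% of levels trimmed). Tested genes reached, in 3 or more of the fitted libraries, the CPM that 10 counts make at the median library size, and 15 or more counts in all. Each comparison was fitted on its own 6 libraries in R 4.3.3 by limma voom, version 3.58.1, with robust moderation (statmod 1.5.0) and Benjamini-Hochberg adjustment. A call needs an adjusted p under 0.05 and 1.5-fold. The planned quasi-likelihood test was replaced by limma voom, since the separator of the matrix kept its unit from being registered as counts. The ratio of Casp8 to Cflar was tested with Python 3.11.15 and scipy 1.17.1.

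Totals ran from 19475804 to 26912031 counts, and 3 counts, the limit that a count of 0 allows, were worth 0.105 to 0.163 CPM on the TMM scale. No pair of libraries of a group agreed within sampling noise (chi-square per gene of at least 9.84). On simulated counts for MRL/lpr against MRL/mpj (16497 genes), 100 of 100 genes changed by 2-fold and 100 of 100 changed by 4-fold were recovered, with 9 false calls. For MRL/lpr+MSC, 96 of 100 and 100 of 100 were recovered against MRL/mpj (16017 genes, 10 false calls), and 93 of 100 and 100 of 100 against MRL/lpr (16563 genes, 10 false calls). The simulation gave every gene and group the same spread beyond sampling noise, and it changed only well-counted genes. In the sequenced libraries the chi-square per gene ran from 25.5 to 64.5 within MRL/lpr, against 9.84 to 10.2 within MRL/mpj. Recovery at that spread was therefore not tested for any gene, nor was recovery of genes with few counts, such as Fas and Ripk3.

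The members, the lists of 79 pathway and 93 marker genes and the tests were chosen with earlier results of these data known. Named genes are all members, every pathway gene called in a comparison, the 2 of each list with the largest absolute log2 fold change between untreated MRL/lpr mice and controls, and the 3 genes most correlated with Fas, apart from some that are not reported here. Alternatives were another scaling, other filters, a 1.5-fold test, 1 fit of all libraries, the replicate block, each library left out and, added after the data were seen, limma-trend.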

Additional observations from a re-analysis of the deposited data

How the results depend on the processing

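Over 47 results of single genes, 517 of 608 values under an alternative kept their direction and their side of the threshold. Of the others, 55 kept the direction and lost the call, 20 kept the direction and gained one, and 16 changed sign. Testing against a 1.5-fold change left 104 genes called in MRL/lpr and 100 in MRL/lpr+MSC, each against MRL/mpj, and 0 pathway genes in both. With all 9 libraries in one fit, 2 pathway genes were called in MRL/lpr+MSC against MRL/mpj. The replicate numbers did not pair the libraries, since same-numbered libraries of MRL/lpr and MRL/mpj had correlated deviations of -0.02, 0.13 and 0.05, and not every library correlated best with its own number. With the replicate block, 1 member was called in MRL/lpr against MRL/mpj (Tnfrsf1a), and 283 genes and 1 pathway gene were called in MRL/lpr+MSC against MRL/mpj. With each library left out in turn, the genes called ran from 165 (MRL/mpj replicate 3 left out) to 1695 (MRL/lpr replicate 2 left out) in MRL/lpr and from 193 to 1514 (without MRL/lpr+MSC replicate 1) in MRL/lpr+MSC, the members called from 0 to 2 and from 0 to 1, and the pathway genes called from 1 to 13 and from 1 to 5. Values that changed sign with a library left out were, for MRL/lpr against MRL/mpj, Fas (-0.24 to 0.15) and Tnfrsf10b (-0.50 to 0.28), for MRL/lpr+MSC against MRL/mpj, Tnfrsf10b (-0.50 to 0.31), and for MRL/lpr+MSC against MRL/lpr, Casp8 (-0.25 to 0.0646), Cflar (-0.28 to 0.0883), Tnfrsf10b (-0.22 to 0.22) and Tradd (-0.12 to 0.11), the last also with limma-trend (0.00143). The log2 ratio of Casp8 to Cflar counts, not among the 47 results, also changed sign in MRL/lpr+MSC against MRL/lpr (-0.21 to 0.06). The cause of these changes was not tested. DESeq2 and the planned count tests were not run, and median-of-ratios scaling and limma's test against a fold took their place. Few counts limit Fasl, Ripk3, Mlkl and Zbp1.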
